A study of Mus musculus with 5 samples.

Results

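The genes described here are 10 genes of cell division and proliferation (Cenpe, Cenpf, Mki67, Myc, Mcm5, Ccnb1, Ccnd1, Ccnd2, Ccna2 and Cdk1), out of 7318 genes named in at least 1 of 3 peak lists. Their peaks are the entries that list their symbols, and the genes were chosen by hand with the peaks of these same lists in view, so every count, fold and position is given as a description. The data are eCLIP, an assay that crosslinks RNA to its bound protein, pulls the protein down and sequences the RNA fragments, with an input library for comparison. PABPC1, which binds the poly(A) tails of messages in the cytoplasm, and CCT3, one part of the ring-shaped chaperonin TRiC that folds actin and tubulin, were each immunoprecipitated from GC-2spd(ts) cells. The 5 samples were 1 PABPC1 immunoprecipitation with 1 input, and 2 CCT3 immunoprecipitations with 1 input. All came from this 1 established line, an immortalised mouse line that the labels call spermatocyte cells, and the labels give no treatment, genotype contrast, time or growth temperature. The 3 lists are called PABPC1, CCT3 and CCT3-2. Both CCT3 samples carry the same library name and are not shown to be independent, so no value here has a replicate check and no test was made.

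Division is driven by kinases paired with cyclins. D-type cyclins act in G1, cyclin A in S phase and G2, and cyclin B with Cdk1 at entry into mitosis. The MCM helicase opens DNA at licensed replication origins, MYC activates genes for growth, and proteins of the outer kinetochore attach chromosomes to the spindle. Ki-67, the product of Mki67, coats mitotic chromosomes and is widely used to mark cycling cells. A spermatocyte in an animal is in meiosis, whereas a cell line divides by mitosis.

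The PABPC1, CCT3 and CCT3-2 lists held 14092, 10916 and 18650 peaks. The files give no read totals per peak. Depth is therefore unknown, and absence from a list does not show absence of binding. Each peak has a log2 fold, taken as immunoprecipitation over input, and a −log10 p, both the authors' own, in columns that are named only in the CCT3 table and were read from their ranges in the others. In the PABPC1 and CCT3 lists both values are at least 3 at every peak, whereas the lowest log2 fold in CCT3-2 is 2.37. Among markers of cell types, PABPC1 peaks were named for 4 of 9 meiotic, 5 of 5 spermatid, 3 of 5 Sertoli, 4 of 4 Leydig and 5 of 6 fibroblast genes, where the share of all protein-coding genes was 22.5%. Held to peaks inside the gene on its strand, the PABPC1 counts were 3, 4, 3, 3 and 5. In CCT3, and likewise in CCT3-2, the counts were 0, 0, 1, 0 and 0 in the same order. The meiotic genes Spo11, Tex11 and Meiob had no peak in any list by name or position, and Hormad1 and Piwil1 were not named but held a PABPC1 peak by position. The highest-fold PABPC1 peaks named for Prm1, Prm2, Tnp2, Clu and Sparc had a −log10 p of 400, a value that 677 PABPC1 peaks reached. For the spermatid genes Tnp1 and Acrv1 it was 28.2 and 13.0, and no Prm2 peak lay inside that gene on its strand. The Leydig gene Insl3 had 22 PABPC1 peaks, up to a log2 fold of 7.71. The labels give 1 line for all samples, and bulk samples do not show which cells the RNA came from. The part of cell identity in the results was not tested, nor was whether the PABPC1 and CCT3 material was alike.

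Most PABPC1 peaks of the 10 genes were classed as 3′ UTR, while CCT3 peaks sat in exons outside the UTR classes and in partly different genes. PABPC1 peaks were named for 5 of the 10 genes (Cenpe, Cenpf, Mcm5, Ccna2 and Cdk1), 10 peaks in all, where 22.5% of 21896 protein-coding genes had one. CCT3 peaks were named for 4 of 10 (Cenpe, Cenpf, Mki67 and Myc), 37 peaks in all, where 9.14% of protein-coding genes had one. CCT3-2 peaks were named for the same 4 genes, 68 in all, where the share of protein-coding genes was 12.0%. Since the genes were picked with these lists in view, nothing is read from the counts against those shares. Cenpe and Cenpf were the 2 genes in both proteins' lists. Ccnb1, Ccnd1 and Ccnd2 had no peak in any list, by listed name or by position inside their spans. By position on the gene's strand where given, 23.6, 9.56 and 11.4% of protein-coding genes had a PABPC1, CCT3 or CCT3-2 peak.

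**Figure D1:**
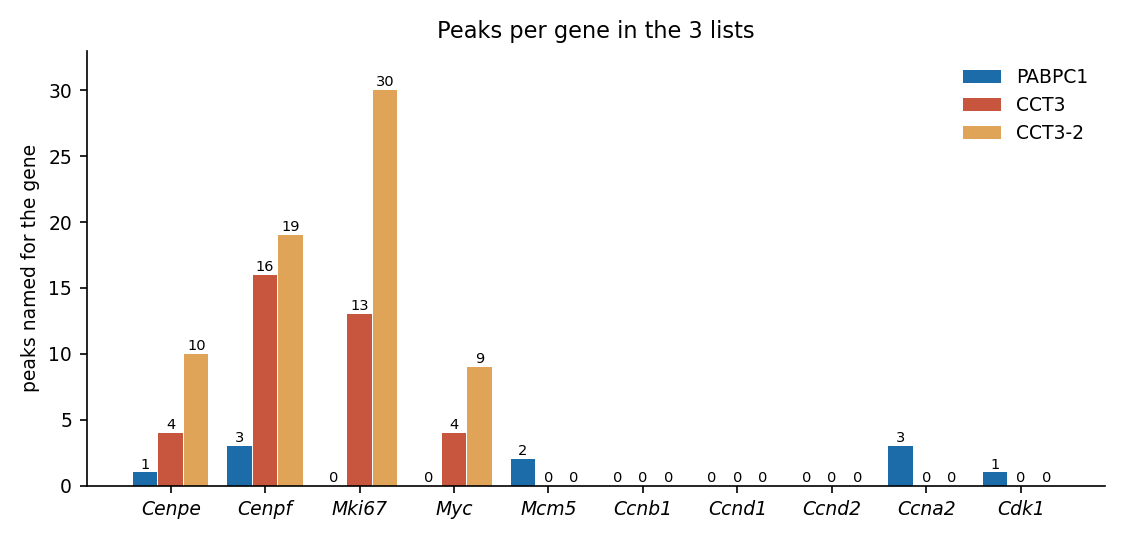
Number of peaks named for each of the 10 genes (vertical axis) in the PABPC1, CCT3 and CCT3-2 lists (bars, 1 list each, no error). Cenpf with 16 and Mki67 with 13 lead the CCT3 list, Mki67 with 30 leads CCT3-2, and no PABPC1 bar is above 3.

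The listed class of the peaks differed between the proteins, though the promoter class was not used alike in the CCT3 table and the others. Of the 10 PABPC1 peaks, 8 were annotated to 3′ UTRs and 2 to promoters, with none in other exons or introns. Held to the 8 peaks inside the gene on its strand, 75% were in 3′ UTRs, and the Ccna2 peak kept was of the promoter class. Of all PABPC1 peaks, 79.9% were in 3′ UTRs and 5.36% in other exons. All 37 CCT3 peaks were annotated to other exons (Wilson 95% interval of the share 90.6 to 100%, covering counting error only), where 47.9% of all CCT3 peaks were. None was in an intron or a 3′ UTR, classes that held 29.6% and 18.0% of all CCT3 peaks. In CCT3-2, 63 of 68 were in other exons (92.6%, 83.9 to 96.8%), where 38.6% of all CCT3-2 peaks were, and the other 5 were in the promoter class. None of the 68 was in a 3′ UTR, where 16.5% of all CCT3-2 peaks were. The CCT3 peaks come from only 4 genes, and peaks of 1 gene share a transcript, so they are not independent.

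In the PABPC1 and CCT3-2 tables, promoter here means close to the start of any listed transcript, including short internal ones, and not the 5′ end of the gene. The CCT3 table did not follow this, as peaks −88 and 75 bases from a listed start in Cenpe were classed as other exon. The promoter-class peak of PABPC1 in Cenpe had its midpoint 29515.5 bases from the 5′ end of the gene span, and that in Ccna2 7016 bases. In CCT3-2, the 3 promoter-class peaks in Cenpe overlapped CCT3 peaks annotated to exon 27 of 46, and the 1 in Cenpf overlapped a CCT3 peak annotated to exon 16 of 18. Thus the same positions carried different classes in the CCT3 and CCT3-2 tables. The promoter class held 0.925% of all CCT3 peaks, against 16.2% in CCT3-2 and 13.2% in PABPC1. Class shares of CCT3 are therefore not on the same footing as those of the other lists.

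Cenpf (gene ID 108000) encodes a large coiled-coil protein of the outer kinetochore that accumulates towards mitosis. It spans 189640606 to 189688107 on the minus strand of chromosome 1 in mm10. Its 16 CCT3 peaks lay in 3 exons, with 11 in exon 12, 4 in exon 13 and 1 in exon 16 of 18. The 11 in exon 12 stretched over 3003 bases, from 189656725 to 189659727, and covered 514 of them. Their log2 folds ran from 3.03 to 5.40 with a median of 3.53. The 4 in exon 13 had folds of 3.18 to 4.48, with 4.26 and a −log10 p of 19.3 at 189654061 to 189654175, the largest −log10 p of the gene in this list.

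The highest fold of all CCT3 peaks in the 10 genes was also in exon 12 of Cenpf, at 189658430 to 189658464, where the log2 fold was 5.40 and −log10 p was 9.85. Of all CCT3 peaks, 7.48% had a larger fold and 36.5% a larger −log10 p. In CCT3-2 the peak at 189658424 to 189658462 had 5.44. The CCT3-2 list had 13 peaks in exon 12, 5 in exon 13 and 1 in the promoter class, 19 in all. By number of peaks Cenpf ranked 114 among 2210 genes named in the CCT3 list, ties sharing the best rank, and 204 among 2852 in CCT3-2.

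PABPC1 peaks in Cenpf lay elsewhere, in the 3′ UTR. The 3 peaks were at 189641995 to 189642068, 189642188 to 189642255 and 189642292 to 189642319, with log2 folds of 3.73, 3.15 and 4.56. Their midpoints were 1425.5 to 1699.5 bases from the 3′ end of the gene span. The highest fold came with the smallest −log10 p, 3.01, and 99.3% of PABPC1 peaks had a larger one. Between the nearest PABPC1 and CCT3 peaks of Cenpf lay 6342 bases of the genome, introns included.

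**Figure D2:**
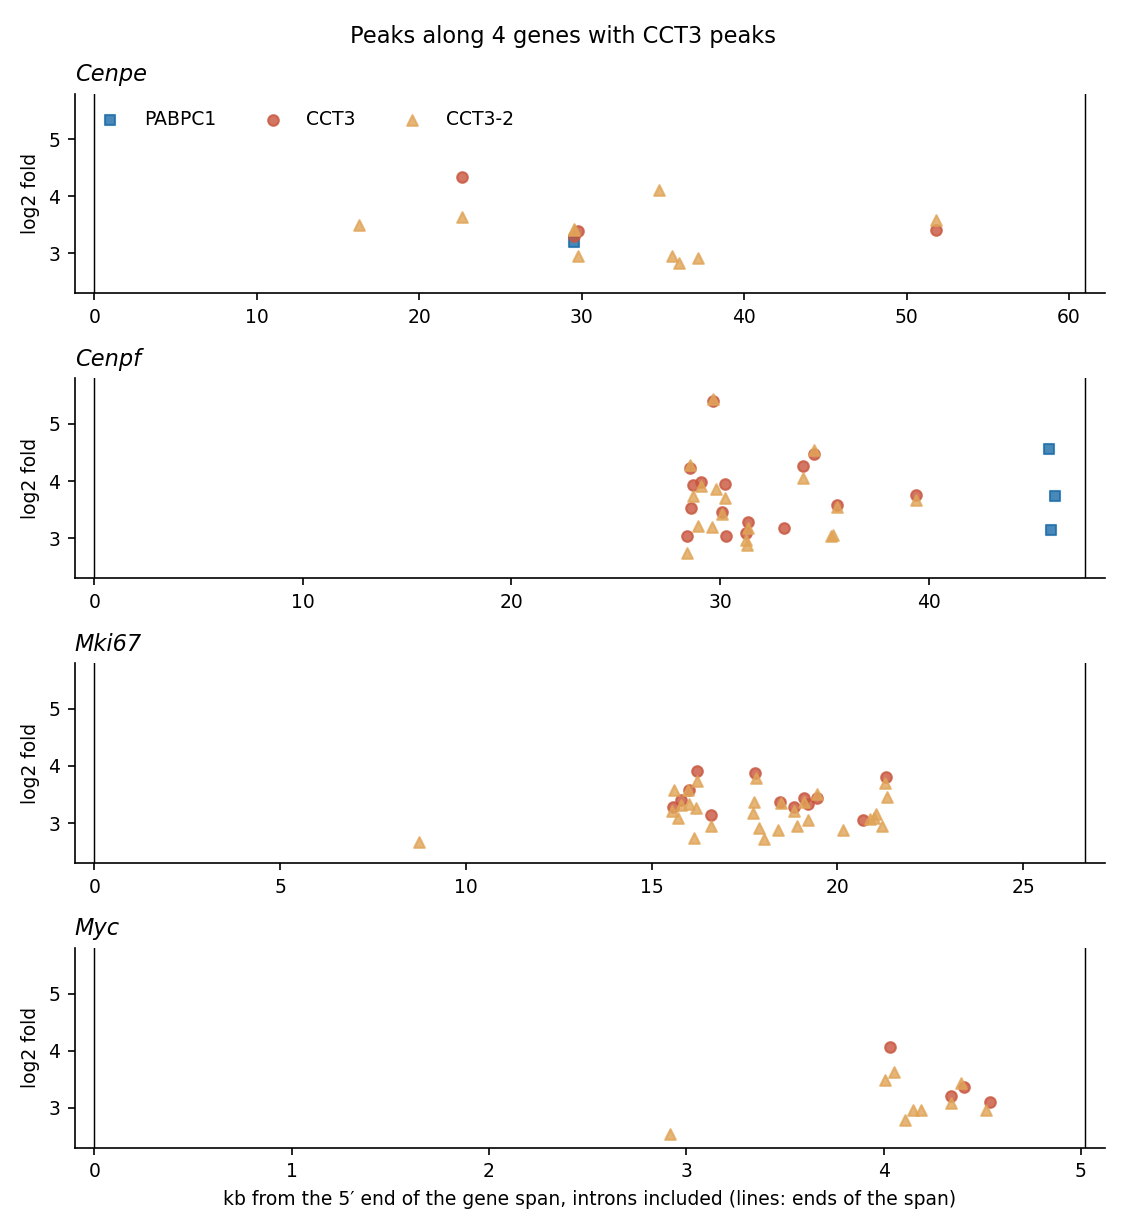
Log2 fold (vertical axis) of each peak by the distance of its midpoint from the 5′ end of the gene span in kb (horizontal axis, introns included) for Cenpe, Cenpf, Mki67 and Myc, with squares for PABPC1, circles for CCT3 and triangles for CCT3-2. The 3 PABPC1 peaks in Cenpf stand apart near the 3′ end, the Mki67 peaks fill a block in the second part of the gene except 1 CCT3-2 peak, and the PABPC1 square in Cenpe sits among CCT3 and CCT3-2 peaks.

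Mki67 (gene ID 17345) spans 135689784 to 135716450 on the minus strand of chromosome 7. All 13 CCT3 peaks were in exon 12 of 14. They stretched over 5841 bases, from 135695093 to 135700933, and covered 896 of them (15.3%). Log2 folds were narrow in range, from 3.05 to 3.91 with a median of 3.41, while −log10 p ran from 14.7 to 60.7. The peak with the largest −log10 p, at 135700399 to 135700496, reached 3.58 in log2 fold. Of all CCT3 peaks, 0.989% had a larger −log10 p than this peak and 71.9% a larger fold.

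The CCT3-2 list gave Mki67 30 peaks, 29 in the same exon over 5855 bases and 1 in exon 6 at 135707670 to 135707737 with a log2 fold of 2.67. None of the 13 CCT3 peaks touched a neighbour, whereas 8 pairs of the CCT3-2 peaks did, with no base between them. Joined where within 10 bases, the 13 CCT3 peaks remained 13 and the 30 CCT3-2 peaks became 22 intervals. By number of peaks Mki67 ranked 177 in the CCT3 list and 80 in CCT3-2. No PABPC1 peak was listed for Mki67.

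Cenpe (gene ID 229841) encodes a kinesin motor that moves chromosomes to the spindle equator. It spans 135212563 to 135273540 on the plus strand of chromosome 3. Its 4 CCT3 peaks were spread over 29235 bases, with 1 in exon 20, 2 in exon 27 and 1 in exon 42 of 46. The exon 20 peak, at 135235180 to 135235215, had the highest log2 fold, 4.35, with a −log10 p of 4.38. Those in exon 27 had 3.31 and 3.39, and that in exon 42 had 3.40 with a −log10 p of 3.62, which 90.8% of CCT3 peaks exceeded. These peaks rested on small −log10 p, from 3.62 to 7.45, below the smallest value of Mki67 in the same list.

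Of the 37 CCT3 peaks in the 10 genes, 1 overlapped a PABPC1 peak, and it was in exon 27 of Cenpe. The PABPC1 peak at 135242063 to 135242094 reached 3.19 in log2 fold and 4.28 in −log10 p, and the CCT3 peak at 135242064 to 135242122 reached 3.31 in log2 fold. They shared 31 bases, which is all but 1 base of the PABPC1 peak. In CCT3-2, 2 touching peaks at 135242062 to 135242076 and 135242077 to 135242116 covered the same place with log2 folds of 3.42 and 3.43. A larger fold than that of the PABPC1 peak was listed for 92.7% of PABPC1 peaks. Over all peaks, 0.669% of CCT3 peaks overlapped a PABPC1 peak.

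CCT3-2 added 5 Cenpe peaks with no CCT3 partner, 1 in each of exons 13, 32, 33, 34 and 35. Their log2 folds were 3.50, 4.12, 2.96, 2.83 and 2.92, so 3 were under the lowest fold of the CCT3 list. The 4.12 peak in exon 32 was 14 bases wide, at 135247339 to 135247352, with a −log10 p of 3.51.

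Myc (gene ID 17869) encodes a transcription factor of cell growth and spans 61985341 to 61990361 on the plus strand of chromosome 15. All 4 CCT3 peaks were in its last exon, 3 of 3, between 61989334 and 61989905. Log2 folds were 4.07, 3.20, 3.37 and 3.11 from 5′ to 3′, and −log10 p were 33.6, 21.6, 34.2 and 28.3. Peak midpoints lay 987.5 to 480 bases from the 3′ end of the span, and the tables did not class any as 3′ UTR. CCT3-2 gave 8 peaks in the same exon, with log2 folds of 2.79 to 3.63, and 1 promoter-class peak at 2.54, the lowest fold among the 68. No PABPC1 peak was listed for Myc.

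The 4 genes differed in how fold and p went together. Median −log10 p in the CCT3 list was 31.0 for Myc and 27.8 for Mki67, against 6.76 for Cenpf and 4.97 for Cenpe. Median log2 folds were close, at 3.29, 3.41, 3.67 and 3.40 in the same order. The 37 peaks had a median log2 fold of 3.44 and a median −log10 p of 14.7, against 4.05 and 7.68 over all CCT3 peaks. Read counts per peak and RNA levels were not used here.

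**Figure D3:**
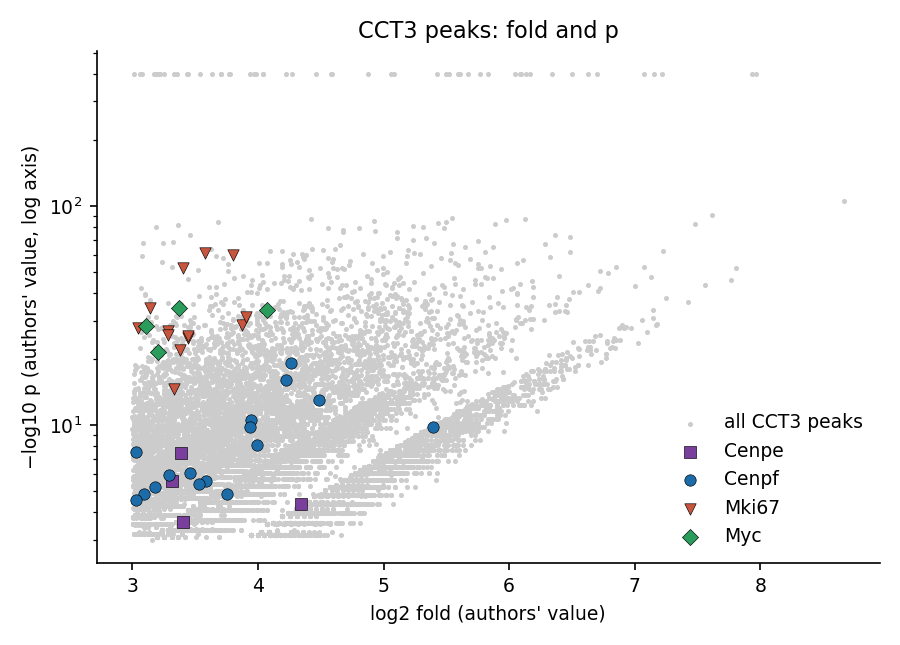
Each CCT3 peak by the authors' log2 fold (horizontal axis) and −log10 p (vertical axis, log scale), with all 10916 CCT3 peaks in grey and those of Cenpe, Cenpf, Mki67 and Myc in colour. Mki67 and Myc lie at −log10 p of 14.7 and above, Cenpe at 7.45 and below, and the highest fold is the Cenpf peak at 5.40.

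The CCT3 peaks were found again in the CCT3-2 list about as often as CCT3 peaks in general. Of the 37, 33 overlapped a CCT3-2 peak (89.2%, 75.3 to 95.7%), against 89.9% of all CCT3 peaks. The 4 without a partner were 3 in Cenpf and 1 in Mki67. Setting each of the 33 beside the CCT3-2 peak that shared most bases, the log2 fold was higher in CCT3 for 26, with a median difference (CCT3 minus CCT3-2) of 0.10 and a range from −0.17 to 0.71. The same share over all overlapping peaks was not counted, so nothing is read from the 26 about these genes. No CCT3 fold was under 3, whereas CCT3-2 went down to 2.37. Of the 33, 9 overlapped several CCT3-2 peaks, and the 1 kept was not always the highest. The largest difference was the exon 20 peak of Cenpe, at 4.35 in CCT3 and 3.64 in CCT3-2. In the other direction, 43 of 68 CCT3-2 peaks overlapped a CCT3 peak (63.2%), against 64.3% of all CCT3-2 peaks. Of the 25 with no partner, 16 had a log2 fold under 3, where the CCT3 list holds no peak. Of the 68, 30.9% were under 3, against 9.29% of all CCT3-2 peaks. The share among all CCT3-2 peaks with no partner was not counted.

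**Figure D4:**
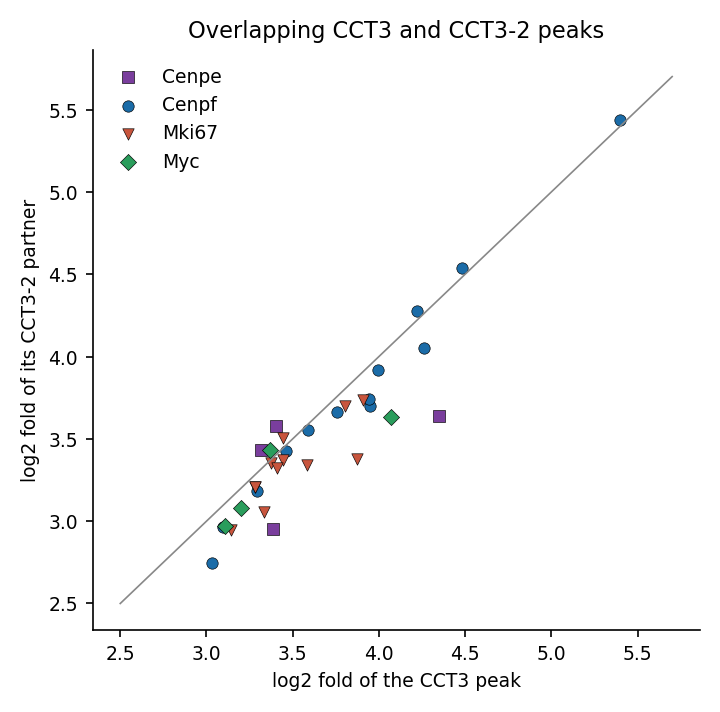
Log2 fold of the 33 CCT3 peaks (horizontal axis) and of the CCT3-2 peak sharing most bases with each (vertical axis), by gene, with the line of equality. Most points lie a little below the line, 26 of 33 being higher in CCT3, and the Cenpf point at 5.40 and 5.44 lies furthest up.

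Mcm5, Cdk1 and Ccna2 had PABPC1 peaks and no CCT3 or CCT3-2 peak. Mcm5 (gene ID 17218, plus strand of chromosome 8, 75109468 to 75128439), which encodes a subunit of the MCM helicase, had 2 in its 3′ UTR. The peak at 75127623 to 75127671 reached 6.72 in log2 fold and 18.0 in −log10 p, and 3.14% of PABPC1 peaks had a larger fold. The other, at 75127479 to 75127526, had 3.55 and 4.64. Their midpoints lay 792 and 936.5 bases from the 3′ end of the span. Both were therefore within 1 kb of the end, closer than the Cenpf peaks.

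Cdk1 (gene ID 12534, minus strand of chromosome 10, 69335146 to 69352912), the kinase of mitotic entry, had 1 PABPC1 peak in the 3′ UTR class, at 69338309 to 69338434. It was 126 bases wide, at 4.42 in log2 fold and 11.2 in −log10 p, and its midpoint lay 3225.5 bases from the 3′ end of the gene span. PABPC1 had a median fold of 4.19 over all its peaks, so this peak was near the middle of the list.

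Of the 3 PABPC1 peaks named for Ccna2, which encodes cyclin A, 1 lay inside the gene on its strand. Ccna2 (gene ID 12428) spans 36564865 to 36573038 on the minus strand of chromosome 3. The peak inside it on the minus strand, at 36565998 to 36566046, reached 5.10 in log2 fold and 4.74 in −log10 p and lay 1157 bases from the 3′ end of the span. The peak with the highest fold, 5.61, at 36565627 to 36565721, was on the plus strand, opposite to Ccna2, where the end of the Exosc9 span (36552606 to 36565727) overlaps it. The third, at 36573156 to 36573192 with 4.04, lay outside Ccna2 and inside the span of Bbs7 (36573142 to 36613492), a minus-strand gene. The count of genes with a PABPC1 peak stays at 5 without these 2 peaks, and the count of peaks becomes 8. Held to listed peaks inside the span, and on the gene's strand where given, 16.8, 7.86 and 9.94% of protein-coding genes had a PABPC1, CCT3 or CCT3-2 peak. All CCT3 and CCT3-2 peaks named for the 10 genes lay inside the named gene, and those of CCT3-2, whose table gives a strand, were all on the gene's strand.

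Few peaks passed a stricter threshold, set at 4 for log2 fold and 5 for −log10 p. In PABPC1 they were 1 each in Mcm5, Cdk1 and Ccna2, the Ccna2 one being the peak on the opposite strand. In CCT3 they were 4 in Cenpf and 1 in Myc, with none in Cenpe or Mki67. In CCT3-2 they were 4 in Cenpf and none in the other 3 genes. Of protein-coding genes, 13.8, 4.69 and 5.23% kept a PABPC1, CCT3 or CCT3-2 peak. The Mki67 peaks dropped out on fold alone, since their smallest −log10 p was 14.7 in CCT3 and 11.5 in CCT3-2.

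Other genes of the cell cycle were counted in 9 lists of 186 genes, which include all of the 10 except Mki67. Leaving out those 9, PABPC1 peaks were named for 79 of 177 genes, CCT3 peaks for 25 and CCT3-2 peaks for 30. With the 9 included the counts were 84, 28 and 33 of 186, or 45.2% (38.2 to 52.3%), 15.1% (10.6 to 20.9%) and 17.7% (12.9 to 23.9%). The shares of all protein-coding genes were 22.5, 9.14 and 12.0%, and these include genes the cells may not express, which were not separated here. The median highest log2 fold per gene was 4.77, 4.37 and 4.35 in the lists, against 4.69, 4.40 and 4.16 over protein-coding genes with a peak. Both proteins were listed by name for 14 genes, 16.7% of the 84 and 50.0% of the 28. Among the 14, no PABPC1 peak named for Orc3 lay inside the gene on its strand. No CCT3 peak named for Plk1 or Smc4 lay inside the gene. Over all protein-coding genes, 678 were listed for both, 13.8% of the 4924 with a PABPC1 peak and 33.9% of the 2002 with a CCT3 peak. No list named 84 of the 186 genes (45.2%), against 69.3% of all protein-coding genes, and neither difference was tested.

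Of 14 cyclin genes, 4 were named in PABPC1 (28.6%, 11.7 to 54.6%) and 0 in CCT3 or CCT3-2 (0 to 21.5%). These intervals include the shares of all protein-coding genes, 22.5, 9.14 and 12.0%. The same 3 shares stand beside the counts of every list that follows, and no list was tested against them. Beside Ccna2, the PABPC1 genes included Ccna1, the germ-line cyclin A, at a log2 fold of 5.42 and Ccnh, a partner of Cdk7, at 5.19. Of 20 kinases, inhibitors and their regulators, 7 had a PABPC1 peak, led by the inhibitor genes Cdkn2c at 6.75 with 7 peaks, Cdkn2a at 6.01 and Cdkn1b at 5.18. In CCT3 the count was 2, with 1 intronic peak in Cdk7 at 4.40 and 1 peak in Cdkn2c at 3.36. Cdkn2c was thus in both lists, with 3 CCT3-2 peaks.

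Among 24 genes of origin licensing and firing, PABPC1 peaks were named for 12 and CCT3 peaks for 3. Gmnn, which encodes the licensing inhibitor geminin, had the highest PABPC1 fold at 6.76, followed by Mcm5. Orc3, of the origin recognition complex, came next at 6.33, but none of its 6 listed PABPC1 peaks lay inside the gene on its strand. The CCT3 genes were Orc3 with 10 peaks up to 6.38, Gins3 with 7 up to 5.32 and Orc1 with 5 up to 5.27. All 5 Orc1 peaks and 8 of the Orc3 peaks were intronic. The CCT3 peaks of the 10 genes held no intronic one.

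The centromere and kinetochore list held 48 of the 152 CCT3 peaks of the 9 lists, 20 of them in Cenpf and Cenpe. Without the 10 genes it held 28 and the MYC network 32. PABPC1 peaks were named for 16 of the 29 genes of this list, and CCT3 peaks for 8 (27.6%, 14.7 to 45.7%). The shares of all protein-coding genes were 22.5 and 9.14%. Without Cenpf and Cenpe, which were picked with their peaks in view, the counts were 14 and 6, and the difference was not tested. Knl1, the scaffold of the outer kinetochore, was not named in PABPC1 but held a PABPC1 peak by position on its strand. It had 15 CCT3 peaks up to 5.43 and 26 CCT3-2 peaks, all in other exons. Cenpc1, a centromere-binding protein gene, had 2 PABPC1 peaks up to 6.33 and 8 CCT3 peaks up to 4.89. Cenpj had the highest PABPC1 fold of the list at 7.94, but 1 of its 5 PABPC1 peaks lay inside the gene on its strand, and it had 2 CCT3 peaks up to 4.40. Cenpq had 4 PABPC1 peaks up to 6.52, all placed in the gene. Over the list, 29 of 32 PABPC1 peaks were in 3′ UTRs and 44 of 48 CCT3 peaks in other exons.

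Spindle checkpoint genes had PABPC1 peaks in 5 of 10 cases, among them Bub3 at 5.06, Mad2l1 at 4.51 and Zwilch at 4.41, and no CCT3 peak. CCT3-2 named 1, Mad1l1, with 2 intronic peaks. Of 35 genes for mitotic kinases, kinesins and chromosome structure, PABPC1 peaks were named for 19 and CCT3 peaks for 7. Kif15, a spindle kinesin, reached 7.99 in PABPC1 and Incenp, of the chromosomal passenger complex, 5.95, while both Nek2 peaks, up to 7.68, lay outside that gene or on the other strand. In CCT3 the highest were Kif18a at 4.998, Kif11 at 4.68, Plk4 at 4.18 and Plk1 at 4.12, and neither Plk1 peak lay inside Plk1. Kif11 with 5 CCT3 peaks and Plk4 with 2 were not named in CCT3-2.

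Genes of the anaphase-promoting complex and SCF, the ubiquitin ligases that remove cyclins and other regulators, had a PABPC1 peak in 13 of 22 cases and a CCT3 peak in 3. Cul1 reached 5.86 and Skp1 5.30 in PABPC1. Anapc7 was listed with 12 peaks up to 7.11, of which 1 was inside the gene on its strand. The CCT3 genes were Fbxw7, which encodes the F-box protein that targets MYC, with 3 peaks up to 4.78, Anapc10 at 4.32 and Anapc1 at 4.14, and all 3 also had PABPC1 peaks.

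In the RB, E2F and DREAM list, 6 of 19 genes had a PABPC1 peak, with Tfdp2 at 4.60, Rb1 at 3.94 and Lin37 at 3.88, and CCT3 peaks were named for 1. By position, CCT3 peaks lay in 4 genes of this list, adding E2f3, Foxm1 and Rb1 with the strand not known, and CCT3-2 peaks lay in 2, adding E2f3. The named gene was E2f7, a repressor of the E2F family, with 22 CCT3 peaks up to 6.11 and 35 in CCT3-2 up to 6.39, all intronic. In the MYC network, PABPC1 peaks were named for 2 of 13 genes and CCT3 peaks for 4. Without Myc, which was picked with its peaks in view, the counts were 2 and 3. The PABPC1 genes were the MAX partners Mxi1 at 5.39 and Mxd1 at 4.47. The CCT3 genes were Myc, its partner Max with 7 peaks up to 4.99, Mlxip with 4 up to 5.21 and Mga with 21 up to 4.34, all 21 in other exons. No gene of this list was named for both proteins, and its intervals, 4.33 to 42.2% for PABPC1 and 12.7 to 57.6% for CCT3, overlap.

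**Figure D5:**
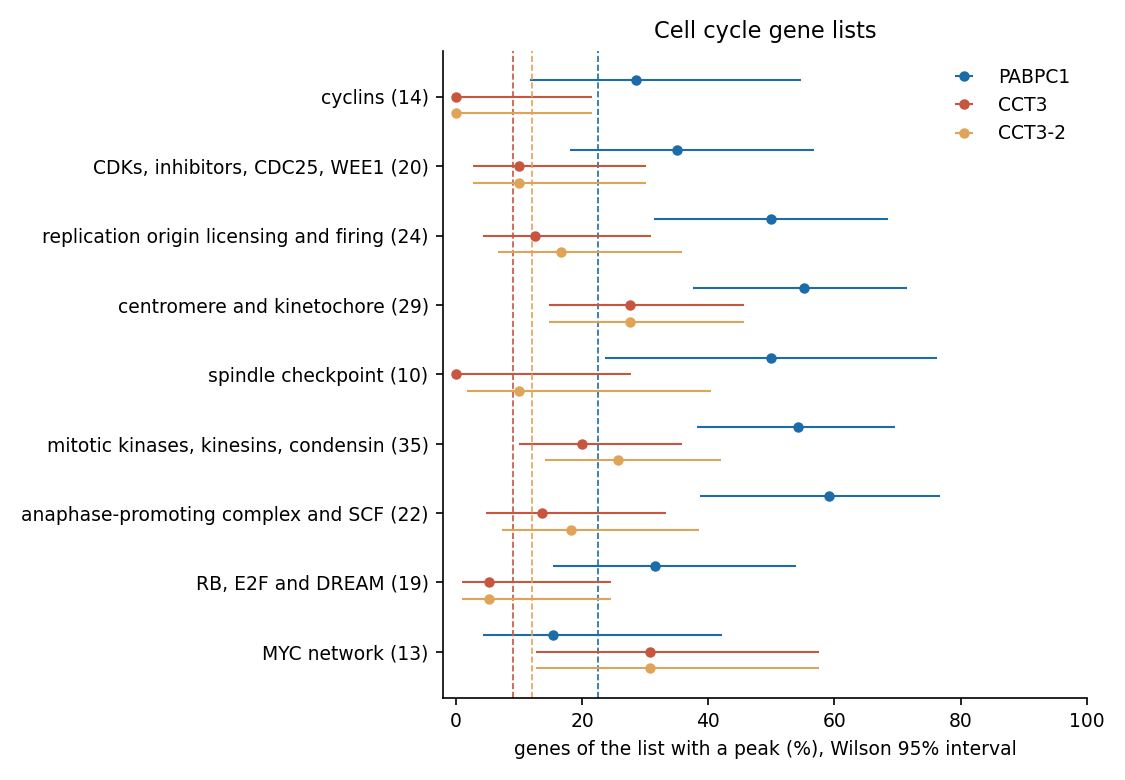
Share of the genes of each cell cycle list (number of genes in brackets) with a PABPC1, CCT3 or CCT3-2 peak, with Wilson 95% intervals that cover counting error only, and dashed lines at the shares of all protein-coding genes (22.5, 9.14 and 12.0%). PABPC1 lies to the right of both CCT3 lists in every list except the MYC network, at 15.4% against 30.8%. Without Myc, picked with its peaks in view, that network has 2 PABPC1 and 3 CCT3 genes.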

How the data were processed

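PABPC1 and CCT3 eCLIP was profiled in 1 mouse cell line, and 3 peak tables were used. The submitters' processing notes name bcl2fastq 2.20 and mm10. The sources used here do not give the peak caller, aligner, treatment of multi-mapping reads or read depth. The deposited −log10 p values, which stop at 400, and the deposited log2 fold values are the authors' own. Both are named in the header of the CCT3 table; in the PABPC1 and CCT3-2 tables these columns are unnamed, and what they hold was inferred from the range of values. Other deposited columns used were peak width and distance to the listed start, in bases. The CCT3 table gives no strand.

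Peaks were taken by listed symbol, and position was checked against RefSeq spans (GRCm38.p6, the same build). Gene strand came from RefSeq promoters or, where absent, the listed transcripts. Distances run from peak midpoint to the end of the gene span. Overlap was at least 1 base, strand ignored. Python 3.11.15, numpy 2.4.6, pandas 2.3.3, scipy 1.17.1 and matplotlib 3.10.9 were used, and the overlap count was tested on simulated data. The genes and lists were chosen with earlier results of these data known. Named genes are the 10, and from each list the 3 highest PABPC1 folds and up to 4 genes with CCT3 peaks. Alternatives were a stricter threshold, position in place of symbol, merging within 10 bases, CCT3-2 in place of CCT3, 50% reciprocal overlap, covered bases and peaks over 1000 bases from the start. Wilson 95% intervals cover counting error only, and reads that are PCR copies of 1 molecule are not independent. Peak sequences were not used here.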

Additional observations from a re-analysis of the deposited data

How the results depend on the processing

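Of 63 alternative values for 14 results, 45 stayed within 1.5 times the main count or within the interval of the main share. At the stricter threshold, which keeps fewer peaks, PABPC1 gave 3 of the 10 genes with 3 peaks, 100% of them in 3′ UTRs. The Ccna2 peak among these 3 was on the strand opposite to the gene. At the same threshold CCT3 gave 2 genes with 5 peaks (0 in Cenpe, 4 in Cenpf and 0 in Mki67). There 0 CCT3 peaks overlapped PABPC1 and 4 overlapped CCT3-2, and 15 CCT3 and 16 CCT3-2 genes of the 186 remained called. With CCT3-2 in place of CCT3 there were 68 peaks (10 in Cenpe and 30 in Mki67), and 2 overlapped PABPC1. With CCT3-2 held to a log2 fold and −log10 p of at least 3, chosen after seeing the data, there were 47 peaks, 21 of them in Mki67. Beyond 1000 bases from the listed start, 100% of PABPC1 peaks were in 3′ UTRs. By position, 96, 31 and 34 of the 186 genes had a PABPC1, CCT3 or CCT3-2 peak, on the gene's strand except for CCT3, which gives none. At the same rule 23.6, 9.56 and 11.4% of protein-coding genes had one. All alternatives for these 186 genes were chosen after seeing the data. Stricter settings keep fewer peaks by construction; for the others the cause was not tested. No paired analysis was possible because each protein's peaks gave single counts with no test. Read depth is unknown and limits what the lists could hold.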

Other observations

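Beside Cenpf, 4 genes of the cell cycle lists carried 10 or more CCT3 peaks, namely Mga, Knl1, E2f7 and Orc3, and they divided by the kind of position. In Knl1, 14 of 15 CCT3 peaks were annotated to exon 8 of 24, and in CCT3-2 20 of 26 were. Median log2 folds of Knl1 were 3.51 in CCT3 and 3.46 in CCT3-2. Mga, which encodes a MAX partner, had 9 of its 21 CCT3 peaks in exon 18 of 25, 4 in exon 2 and 5 in the last exon, with a median log2 fold of 3.51. In E2f7, 16 of 22 CCT3 peaks were in intron 7 and 6 in intron 9 of 12, with a median of 4.77. Orc3 had 8 of its 10 CCT3 peaks in intron 9 of 19. None of Mga, Knl1 and E2f7 was named in the PABPC1 list, though Knl1 held a PABPC1 peak by position on its strand. Whether fold differs between intronic and exonic peaks was not tested.

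By listed name, 26 of 28 CCT3 genes of the lists were in CCT3-2 as well, and the share over all CCT3 genes was not counted. The 2 that were not, Kif11 with 5 peaks up to a log2 fold of 4.68 and Plk4 with 2 up to 4.18, were singled out after their values were seen. Neither held a CCT3-2 peak by position on its strand, and overlap without regard to strand was not looked at for them.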
